A study of Homo sapiens with 2 samples.

Results

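The RNA interference machinery comprises the proteins that cut, export and load the small RNAs of a cell. The transcripts of 10 of its genes were followed here in SBC-3, an adherent small-cell lung cancer (SCLC) cell line. They encode the nuclear processing complex (DROSHA, DGCR8), the export receptor (XPO5), the cytoplasmic nuclease with its partners (DICER1, TARBP2, PRKRA) and the 4 Argonautes (AGO1, AGO2, AGO3, AGO4). The genes were chosen by their role, not by a measured value, although earlier results of these data were known. They were found by matching the RefSeq accession of each probe to a current gene symbol, under which the Argonautes replace the older EIF2C names. All 10 were found among 19061 named genes, on 14 of 24824 named probes and in 30 spots.

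In microRNA biogenesis, DROSHA and its partner DGCR8 cut a hairpin out of a primary transcript in the nucleus, and XPO5 carries the hairpin to the cytoplasm. DICER1 then cuts off the loop, and one strand of the resulting duplex is loaded into an Argonaute, which it guides to messenger RNAs by base pairing through its seed, the bases near the 5′ end. A transfected small interfering RNA (siRNA) is already a short duplex and enters the same Argonautes directly. AGO2 is the human Argonaute known for efficient slicing of a matched target.

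SBC-3 cells were transfected with #1 siHOTAIR, 1 of the siRNAs against the long noncoding RNA HOTAIR, or with the control siGFP, whose target is green fluorescent protein. Cy3-labeled total RNA of each culture went onto a single Agilent array. With 1 array for each siRNA there was no replicate, and differences are described without a test. Both cultures received an siRNA, and no untransfected or mock-transfected culture was among the arrays, so a response common to any siRNA cannot be seen in this comparison. The siRNA, the culture and the array cannot be told apart, and in RNA from a whole culture fewer cells of a type and less RNA per cell cannot be told apart either. Both arrays lay on the same slide and were scanned together.

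The strands of #1 siHOTAIR are shown first because they are the small RNA that these proteins handled in 1 of the cultures. The antisense strand pairs with HOTAIR, and the capitals mark its seed, bases 2 to 8 from the 5′ end. The sense strand carries the letters of the target.
#1 siHOTAIR antisense strand: uCUCUCUGuacucccguucuu
#1 siHOTAIR sense strand: gaacgggaguacagagagauu
Among 2370 names of mature human microRNAs in the RefSeq table of GRCh38.p14, 1 shared the 7 letters of this seed and 0 shared those of the siGFP antisense strand. The sequence with the shared seed is printed with the seed in capitals.
hsa-miR-6817-3p: uCUCUCUGacuccauggca
The arrays measured long RNA only, so neither this microRNA nor the siRNA itself was measured.

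The target of the siRNA was checked first. HOTAIR, a noncoding RNA transcribed from the HOXC cluster, had a signal of 108 with #1 siHOTAIR and 244 with siGFP. Its log2 ratio (#1 siHOTAIR over siGFP, each array scaled to its 75th percentile) was -1.22, that is 57.2% lower, from 1 spot with a measurement SD of 0.21. The measurement SD is the error of a probe's mean ratio, taken from the typical SD of repeated spots at the same brightness on each array and divided by the square root of the number of spots averaged. It covers error within an array only. The reference genes lay near 0, with ACTB at -0.02 and -0.05 on its 2 probes and GAPDH at 0.00.

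The signal of all 14 RNA interference probes stood well above background on each array, so every gene could be compared. Signals are printed as in the deposited scanner output, and the 75th percentiles they were scaled to were 650.3 (#1 siHOTAIR) and 629.9 (siGFP), so equal signals correspond to a log2 ratio slightly below 0. 0 of the 10 genes differed at least 2-fold, the fold named in the methods of the study. Of all 13014 named genes compared, 800 (6.15%) passed 2-fold, counting genes detected on 1 array at their own dim signal, and of the 12026 that were well above background on both arrays, 346 (2.88%) did. At 1.5-fold, 1 of the 10 genes passed, AGO4, which was lower, against 12.8% of the genes detected on both. The median log2 ratio of the 10 genes was -0.07, with 3 above 0 and 7 below 0, beside a median of 0.03 for all genes detected on both. With arrays scaled to the spike-in RNA the median of the 10 genes became 0.03, with 6 above 0, while that of all named genes compared went from 0.02 to 0.11.

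Differences shrink as signals grow brighter, so the genes were set beside others of their own level. Level is the log2 signal relative to the 75th percentile, averaged over both arrays. DICER1, DGCR8, XPO5, PRKRA, AGO1, AGO2 and AGO3 lay between 0 and 2, with a median absolute log2 ratio of 0.11 beside 0.21 for all 3258 genes of that level. DROSHA and TARBP2 lay between 2 and 4, with 0.10 beside 0.18 for 2039 genes. AGO4 was the dim member, between -4 and -2, where the median absolute log2 ratio of 2317 genes was 0.30. Genes were matched by level only, not by the number of spots averaged. The brightest probe stood for each gene, which leaves out other probes of XPO5 (0.51 and -0.10), AGO3 (0.37) and AGO1 (-0.12).

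**Figure D1:**
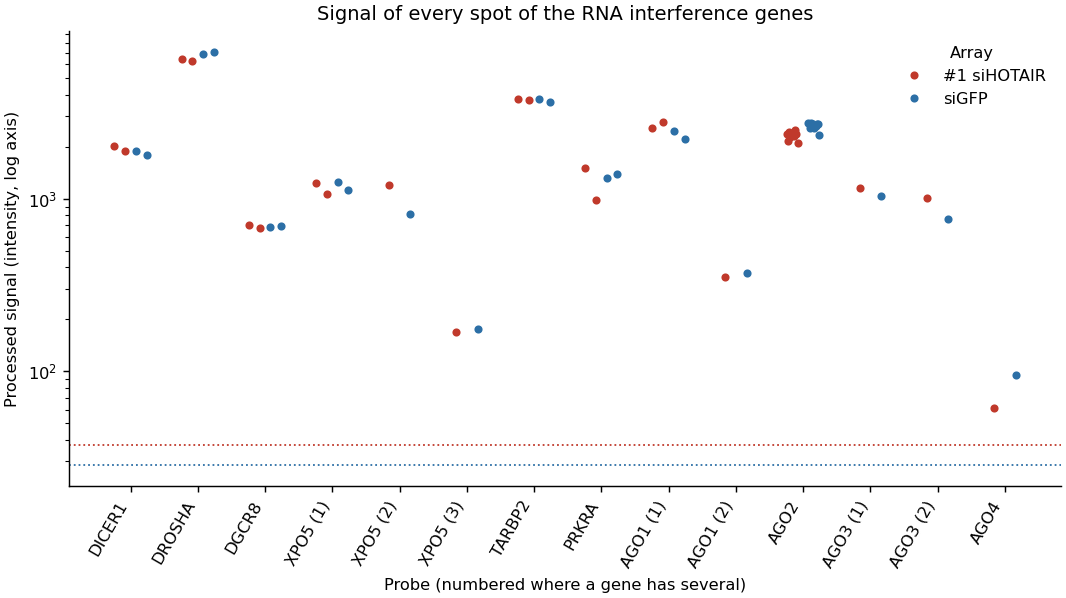
Processed signal (intensity, log axis) of every spot of the 14 probes of the RNA interference genes on the #1 siHOTAIR array (red) and the siGFP array (blue), with the lowest signal well above background of each array, 37.3 and 28.6, as dotted lines. Every spot lies above both lines, and AGO4, at 61.2 and 94.9, is the dim one; probes bind with different efficiency, so heights are read within a probe and not between genes.

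The Microprocessor genes came first in the pathway. DROSHA, the nuclease, gave 6484 and 6261 on its 2 spots of the #1 siHOTAIR array and 6888 and 7095 on those of the siGFP array. Both spots were lower with #1 siHOTAIR and the values of the arrays did not overlap. How many of all probes with 2 spots show no overlap was not counted, and the spots are repeats on the same array. The median absolute log2 ratio of genes at the level of DROSHA was 0.18. The log2 ratio was -0.18, or 11.7% lower, with spots at -0.13 and -0.23 and a measurement SD of 0.06. DGCR8, the RNA-binding subunit that recognizes the hairpin, gave 704 and 681 on the #1 siHOTAIR array against 688 and 697 on the siGFP array. The signals of DGCR8 overlapped before scaling and not after it, and its log2 ratio of -0.05 was smaller than its measurement SD of 0.06.

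XPO5, the export receptor that binds hairpins together with RAN, was measured by 3 probes that did not give the same ratio. The probe with 2 spots gave 1235 and 1064 with #1 siHOTAIR and 1247 and 1118 with siGFP, a log2 ratio of -0.09 with a measurement SD of 0.06. A second probe with 1 spot gave 1195 and 814, a log2 ratio of 0.51, or 42.1% higher, with a measurement SD of 0.09. The third, a dim probe with 1 spot, gave 170 and 175, a log2 ratio of -0.10 with a measurement SD of 0.13. The gap between the outermost XPO5 probes was 0.60 on the log2 scale, beside a median gap of 0.19 over 2652 genes with several such probes. Which parts of the transcript the probes cover was not examined here.

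DICER1, which cuts hairpins and long duplexes into short ones, gave 2026 and 1900 with #1 siHOTAIR and 1902 and 1797 with siGFP. Its log2 ratio was 0.04 with a measurement SD of 0.06, the values of the arrays overlapped, and the ratio was smaller than that SD, although its own spots, at 0.03 and 0.04, were close to each other. TARBP2, a double-stranded RNA-binding partner of DICER1, gave 3809 and 3748 against 3806 and 3621, a log2 ratio of -0.02. Its spots fell on either side of 0.

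PRKRA, the other binding partner of DICER1 and an activator of the kinase EIF2AK2, was the least even of the probes with 2 spots. The spot in row 57 of the array gave 1516 with #1 siHOTAIR and 1320 with siGFP, a log2 ratio of 0.15. The spot in row 122 gave 980 and 1388, a log2 ratio of -0.55. The mean of -0.20 therefore had spots on both sides of 0. The spots differed 1.55-fold from each other with #1 siHOTAIR and 1.05-fold with siGFP. Of 4639 probes with 2 spots, 155 (3.34%) differed that much, at least 1.5-fold, between their own spots with #1 siHOTAIR and 125 (2.69%) with siGFP. EIF2AK2, the double-stranded RNA-activated kinase, had log2 ratios of 0.08 (2330 and 2136) and 0.40 (300 and 220) on its 2 probes.

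Among the 7 probes of these genes with 2 spots, both spots lay on the same side of 0 for 5, in DICER1 and AGO1 higher and in DROSHA, DGCR8 and XPO5 lower, although the DGCR8 and XPO5 means lay above 0 with spike-in scaling. PRKRA and TARBP2 were split. Of all such probes 82.9% had both spots on the same side, so agreement of 2 spots was common on these arrays.

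**Figure D2:**
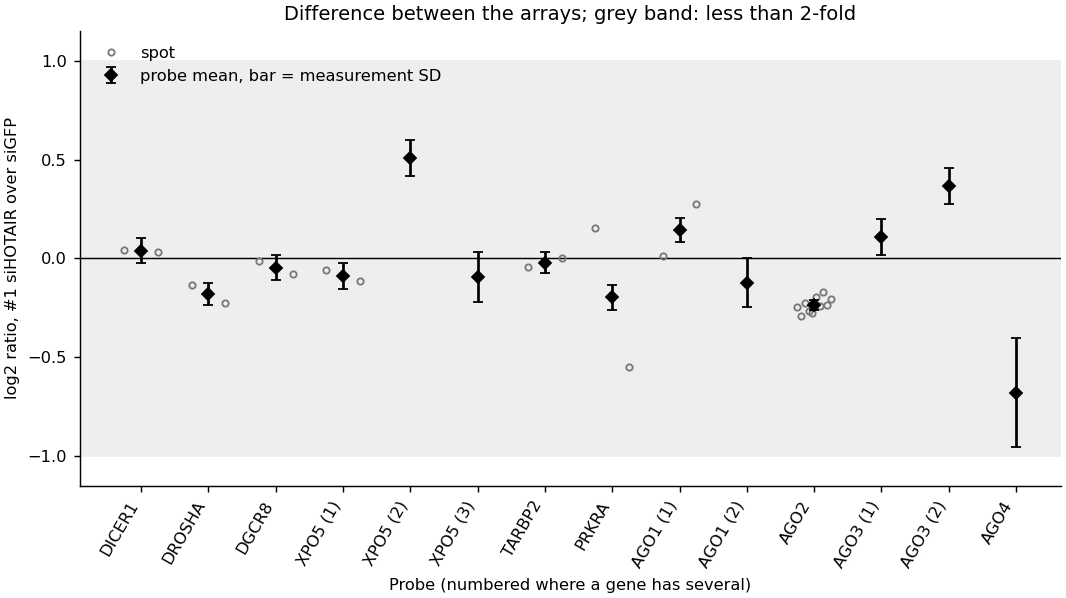
Log2 ratio (#1 siHOTAIR over siGFP) of the 14 probes, with the probe mean as a diamond, the measurement SD as a bar and the single spots of probes with several spots as open circles; the grey band marks less than 2-fold. Every probe lies inside the band, from -0.68 for AGO4 to 0.51 for the second XPO5 probe, and the PRKRA spots lie apart at 0.15 and -0.55.

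The Argonautes hold the guide strand. AGO1 gave 2556 and 2775 with #1 siHOTAIR and 2454 and 2223 with siGFP. These values did not overlap, and the log2 ratio was 0.14, or 10.4% higher, with spots at 0.01 and 0.27 and a measurement SD of 0.06. Absence of overlap was not counted over all probes here either, and the median absolute log2 ratio of genes at this level was 0.21. A dimmer AGO1 probe with 1 spot gave 354 and 373, a log2 ratio of -0.12 with a measurement SD of 0.13. The probes of AGO1 thus lay on either side of 0, with a gap of 0.27.

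AGO2, the slicing Argonaute, was measured in 10 spots spread over the array, which made it the most precisely measured gene of the 10. The signal ran from 2103 through a median of 2326 to 2493 on the #1 siHOTAIR array and from 2344 through a median of 2678 to 2761 on the siGFP array. The ranges overlapped, since the lowest spot of the siGFP array lay within those of the #1 siHOTAIR array, but spot by spot all 10 were lower with #1 siHOTAIR. The log2 ratio was -0.23, or 15.0% lower, with spots from -0.29 to -0.17, an SD over spots of 0.04 and a standard error of their mean of 0.01. The measurement SD, which like the standard error refers to the mean of the 10 spots, was 0.03. The spots are repeats of 1 hybridization, so this spread holds no difference between cultures. The error estimate of the scanner software, which does not use the repeats, gave an SD of 0.20 for the ratio of each spot.

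The same direction in 10 of 10 spots was not rare. Of 404 probes with 10 spots well above background on both arrays, 142 (35.1%) were lower in all 10 and 115 (28.5%) were higher in all 10. The log2 ratio of 97 of them (24.0%) was at or below that of AGO2. Their quartiles were -0.22 and 0.17, so AGO2 lay just outside the lower quartile. The difference in AGO2 was larger than the spread between its spots.

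**Figure D3:**
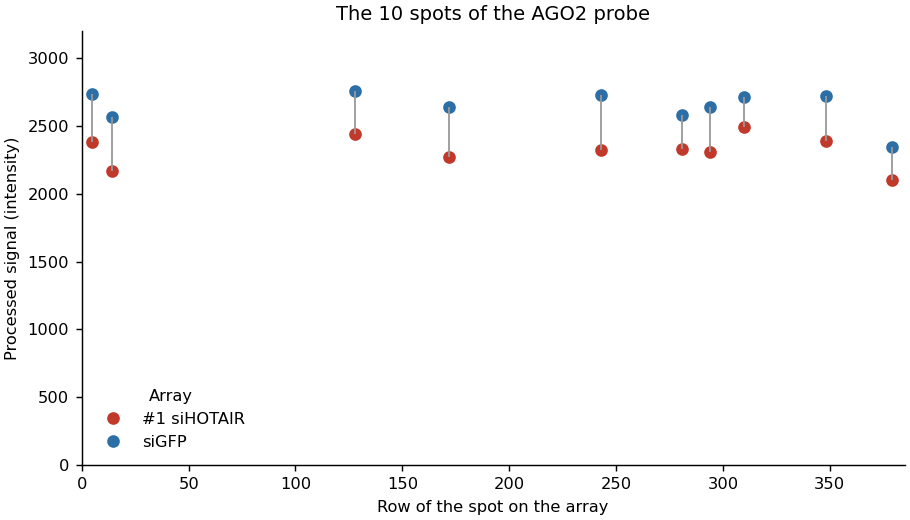
Processed signal (intensity, axis from 0) of the 10 spots of the AGO2 probe by their row on the array, with each grey line joining the same position on the #1 siHOTAIR array (red) and the siGFP array (blue). In every row the red point lies below the blue point, with medians of 2326 and 2678.

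AGO3 was higher on both of its probes, each with 1 spot. One gave 1159 with #1 siHOTAIR and 1042 with siGFP, a log2 ratio of 0.11. The other gave 1016 and 764, a log2 ratio of 0.37, or 28.8% higher. The measurement SD was 0.09 for each, and the gap between the probes was 0.26. The brighter probe, the smaller ratio of the pair, stood for the gene in the counts.

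AGO4 showed the largest ratio of the 10 genes and rested on the dimmest signal. Its 1 spot gave 61.2 with #1 siHOTAIR and 94.9 with siGFP, a log2 ratio of -0.68, or 37.5% lower. The measurement SD at this level was 0.27 and the SD from the scanner software 0.33. Of the 2317 genes at the same level, 21.5% differed at least 1.5-fold and 179 (7.73%) had a ratio at or below that of AGO4. The ratio was -0.32 with normexp background correction and an offset of 50, and -0.33 without background correction.

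AGO4, AGO1 and AGO3 are neighboring protein-coding genes on chromosome 1 in that order, while AGO2 lies on chromosome 8. The ratios of the neighbors did not share a direction. AGO4 was lower by 0.68, AGO1 gave 0.14 and -0.12, and AGO3 gave 0.11 and 0.37. Their measurement SDs ran from 0.06 for the brighter AGO1 probe to 0.27 for AGO4. Whether the neighbors differ from each other was not tested.

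**Figure D4:**
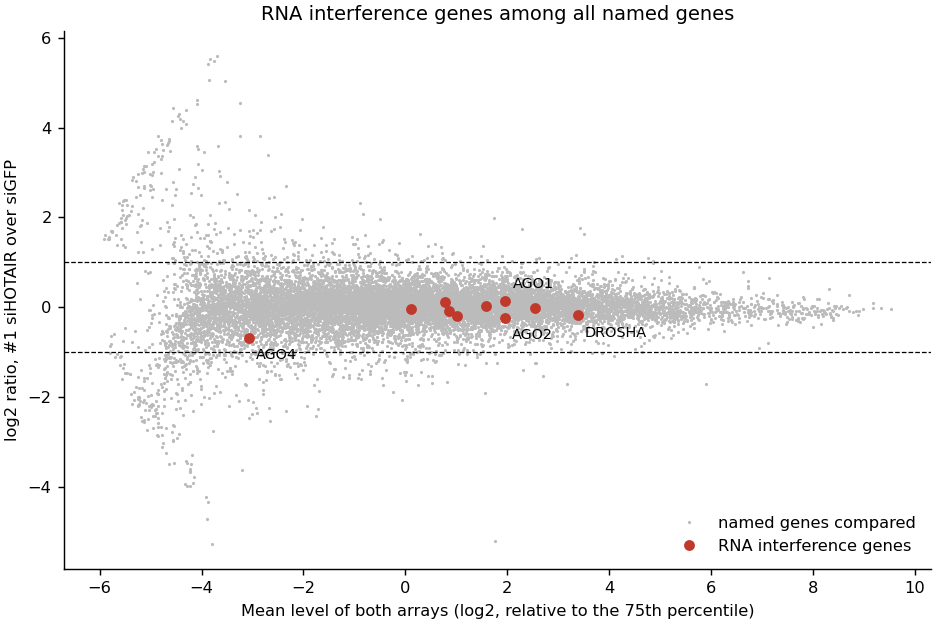
Log2 ratio (#1 siHOTAIR over siGFP) against the mean log2 level of both arrays for the 13014 named genes compared (grey) and the 10 RNA interference genes (red), with dashed lines at 2-fold. The red points lie between -0.68 (AGO4, the dim one) and 0.14 (AGO1), inside the lines, and grey points spread more widely at low levels.

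The partners and regulators of these proteins were followed in 5 lists. Of 76 genes listed, 75 had a named probe and 74 were compared, each detected on both arrays. Their median log2 ratio was 0.03, the same as that of all genes on both arrays, with 40 above 0 and 34 below. At 2-fold, 0 were higher and 1 was lower, beside 2.88% of the genes on both arrays.

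The regulators of processing include the LIN28 proteins, which block let-7 maturation, the uridylyltransferases TUT4 and TUT7 and the RNA editor ADAR. Of 19, 18 were compared, 0 passed 2-fold and the median was 0.10. DIS3L2, the nuclease that removes uridylated let-7 precursors, was the lowest at -0.31 (152 and 183) on its brightest probe, while another detected on both arrays gave 0.16. LIN28A (1747 and 1486) and LIN28B (13268 and 12214) were both detected, at 0.19 and 0.07. TUT7 was well above background on neither array.

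In the list for export, all 6 genes were compared with a median of -0.10. RANGAP1, which stimulates GTP hydrolysis by RAN in the cytoplasm, was the lowest at -0.32 and RCC1, which loads RAN with GTP in the nucleus, the highest at 0.57 (1888 and 1236, 2 spots). RAN itself gave 0.03.

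The 22 Argonaute partners and loading factors were all compared, with 0 past 2-fold and a median of 0.11. TSNAX, a subunit of the nuclease that removes the passenger strand, was the lowest at -0.40 (-0.15 on its other probe), and CLP1, an RNA kinase that can phosphorylate siRNAs, the highest at 0.57. The genes of the GW182 proteins, which bridge an Argonaute to deadenylases, had ratios on either side of 0. TNRC6A gave 0.31 (477 and 372), TNRC6B 0.11 (338 and 304) and TNRC6C -0.22 (438 and 493). Each value rests on 1 spot with a measurement SD of 0.13, and the ratio of TNRC6B was smaller than that SD. A dimmer TNRC6C probe, well above background on the siGFP array only, gave -0.05.

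Of 23 factors of deadenylation, decapping and decay, 22 were compared with a median of -0.05. PAN2, the catalytic subunit of a deadenylase, was the 1 gene past 2-fold, with 95.8 under #1 siHOTAIR and 230 under siGFP. Its log2 ratio was -1.31, or 2.48-fold lower, from 1 spot in row 315 with a measurement SD of 0.21. Its partner PAN3 gave -0.08 and, on a dimmer probe, -0.32. PAN2 no longer passed 2-fold with normexp correction or without background correction. DCP1B, a cofactor of decapping, was lower by 0.85 on the log2 scale (611 and 1068, 1 spot), and EDC4, a scaffold of decapping, was the highest at 0.25 (0.49 on its other probe).

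The 6 factors of small RNA and Argonaute turnover had a median of 0.22 and 0 past 2-fold. PNPT1, a polynucleotide phosphorylase, was the lowest at -0.10 on its brighter probe, with 0.10 on the other, and ZSWIM8, a ubiquitin ligase receptor for Argonautes, the highest at 0.50 from 1 spot.

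The germline relatives served as a contrast. Of 9 genes for PIWI proteins and their partners, 8 were well above background on neither array. TDRD1 had 1 probe well above background on the siGFP array only (44.9 and 59.2).

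**Figure D5:**
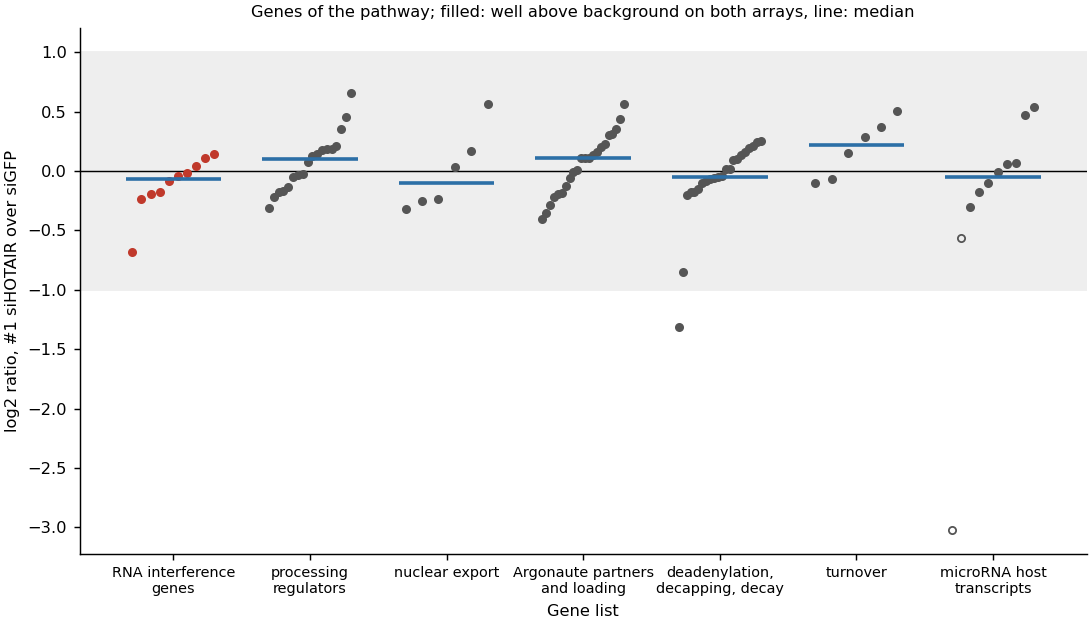
Log2 ratio (#1 siHOTAIR over siGFP) of each gene compared, in 7 lists (the 10 RNA interference genes, the 5 pathway lists and the microRNA hosts), with filled points for genes well above background on both arrays, open points for genes on 1 array, blue lines for medians over the genes compared and a grey band for less than 2-fold. Among filled points, PAN2 at -1.31 is the 1 outside the band, and the 7 medians lie between -0.10 and 0.22.

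The host transcripts of microRNAs are the substrates from which the nuclear complex cuts hairpins. The arrays named 16 of 87 such transcripts, of which 8 were well above background on both arrays, with a median of 0.02. The hairpin below is shown as an example of a substrate, from the transcript MIR17HG, with both mature microRNAs in capitals (84 bases, GRCh38.p14, chr13:91350605-91350688, plus strand).
MIR17 hairpin: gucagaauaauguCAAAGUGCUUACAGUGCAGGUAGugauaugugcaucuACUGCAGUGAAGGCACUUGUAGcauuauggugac
The guide strands that arise from the 3 transcripts described next are printed with their seeds in capitals, and all 3 seeds differ from that of #1 siHOTAIR.
hsa-miR-17-5p: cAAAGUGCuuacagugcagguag
hsa-let-7b-5p: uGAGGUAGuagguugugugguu
hsa-miR-9-5p: uCUUUGGUuaucuagcuguauga
MIR17HG, host of a cluster that promotes growth, gave 3076 with #1 siHOTAIR and 3378 with siGFP, a log2 ratio of -0.18. MIRLET7BHG, the host of let-7b, gave 0.53 (1643 and 1099) on 1 probe and -0.24 (99.4 and 114) on a dimmer one. MIR9-2HG, a host of miR-9, gave -0.10 (5126 and 5340) and -1.27 (267 and 623). For MIRLET7BHG and for MIR9-2HG, the ratio thus depended on the probe. MIR600HG was well above background on the siGFP array only (66.5, against 8.47), which bounds it at least 1.84-fold lower with #1 siHOTAIR. Host transcripts do not give the level of mature microRNAs, which were not measured.

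The identity of the culture was checked with lineage markers, whose part in the results above was not tested. Of 8 SCLC markers, YAP1 (6522 and 6750) and NEUROD1 (213 and 372, log2 ratio -0.85) were well above background on both arrays. CHGA was detected with #1 siHOTAIR only (72.2, against 10.2, at least 2.44-fold higher), and 1 of 3 NCAM1 probes was well above background in 50% of its spots on that array. INSM1, POU2F3 and SYP were well above background on neither array, and of these INSM1 and SYP are neuroendocrine markers.

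Among epithelial markers KRT8 (2825 and 2557) and KRT18 (431 and 565) were detected on their brighter probes, EPCAM was well above background in 1 of 2 spots on the siGFP array only, and CDH1 was not detected. Among fibroblast markers COL1A2 (3758 and 3741) and COL1A1 (832 and 414, log2 ratio 0.96) were detected, and COL3A1, DCN, LUM and PDGFRB were not. Among blood markers CD14 (111 and 121) was detected on both arrays together with 1 of 4 PTPRC probes (106 and 61.0), and CD3E and HBB on neither. A second PTPRC probe was well above background in 50% of its spots on the siGFP array only (12.0 and 20.7).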

How the data were processed

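Total RNA of 2 cultures was measured on 2 one-colour arrays, 1 per condition. The authors labeled RNA with Cy3 and read the spots with Agilent software (Feature Extraction 10.10.1.1). The deposited scanner files hold the processed intensity used here, with background and spatial trend removed, not normalized between arrays. The value table deposited with the series instead equals the background-subtracted intensity (largest difference 0).

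Each array was scaled by subtracting, on the log2 scale, the 75th percentile of its 58717 non-control spots. Outlier spots (393 and 375) were left out, and spots were averaged per probe. No spot was saturated. Probes entered the comparison with 50% or more of their spots well above background on either array, and the probe with the highest mean signal stood for its gene. Counts and medians use every signal at its own level. Where the text writes "at least" for a probe on 1 array only, the dim side was set to the lowest signal well above background there, or to its own if higher. Signals were well above background for 52.1% (#1 siHOTAIR) and 55.3% (siGFP) of 42402 probes. Of these probes 58.5% matched a name in the RefSeq table of GRCh38.p14, used for names and gene order only. The measurement SD of a probe's mean ratio came from the spot SDs of probes with 10 spots in 6 levels of signal, divided by the square root of the spots averaged and combined over both arrays. The number of arrays limits the precision, and no P-value was computed.

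The members and lists were chosen with earlier results of these data known, and the microRNA hosts after the files were seen. Named genes were every member, each list's genes past 2-fold, its highest and lowest genes on both arrays, HOTAIR, ACTB and GAPDH. A few listed genes are not reported here. RAN, PAN3, DCP1B, TUT4, TUT7, ADAR, the LIN28 and TNRC6 genes, EIF2AK2, the PIWI genes, the markers and the hosts were named outside that rule after their values were seen. Alternatives were other scalings, background corrections (on the median pixel signal, since the mean was not used here), filters, probe and spot summaries and folds. The calling of changes was tested on simulated data, with larger changes than those of the members and with noise between spots only. That test does not cover smaller changes or variation between cultures. Python 3.11.15, pandas 2.3.3, R 4.3.3 and limma 3.58.1 were used.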

Additional observations from a re-analysis of the deposited data

How the results depend on the processing

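No paired analysis was possible because there was 1 array per condition, and for the same reason no array could be left out. The count of members past 2-fold was 0 under every alternative scaling, background correction, filter and summary, and it was 1 with a threshold of 1.5-fold. Scaling to the spike-in RNA moved the median of the members from -0.07 to 0.028 and that of the 5 pathway lists from 0.03 to 0.12. The pathway count of 1 (PAN2) became 0 with normexp, 0 without background correction, 3 at 1.5-fold and 0 at 3-fold.

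The count of all named genes past 2-fold, 800, was 215 with normexp, 172 without background correction, 330 with every spot well above background on both arrays and 1387 with no filter. It was 2190 at 1.5-fold and 334 at 3-fold. Over 10 alternatives, DICER1, AGO3 and the brighter AGO1 probe stayed above 0, and DROSHA, PRKRA, AGO2 (-0.27 to -0.14) and AGO4 (-0.69 to -0.32) below 0. With spike-in scaling DGCR8 (0.049), TARBP2 (0.075), the XPO5 probe with 2 spots (0.0074) and the dim XPO5 probe (0.0004) changed sign to above 0, and TARBP2 did so without scaling too (0.0254). Of the values for single probes 121 moved by less than the measurement SD and 19 by more. A change of filter cannot move the value of a single probe, and the median over spots can move only that of AGO2. These alternatives are counted among the 10 and the 121, so part of this stability was fixed in advance. Signal over background limits AGO4, HOTAIR and PAN2, each of which rests on 1 dim spot.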
